A study of Bos taurus with 10 samples.

Results

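The 10 genes described here belong to gene families of fatty acid activation and mitochondrial oxidation. They are the activating enzymes Acsbg1 and Acsl1 and the carnitine palmitoyltransferases Cpt1a, Cpt1b, Cpt1c and Cpt2. The others are the acyl-CoA dehydrogenases Acadl, Acadm and Acadvl, and Hadha. The 10 genes were chosen by symbol with earlier results of these data known, so their counts and p-values are not independent of that choice. All 10 listed symbols had 1 row each among the 21130 rows of the deposited table. The libraries were labelled as muscle RNA of cattle aged 24 months, 7 heterozygous for a MSTN edit (MSTN+/-) and 3 wild type, here called W1, W2 and W3 for replicates 1, 2 and 3. MSTN encodes myostatin, a secreted inhibitor of muscle growth. The labels name no breed, muscle, sex, edited allele or number of animals, so p-values measure the spread between libraries, which may be technical. Values are FPKM, fragments scaled by transcript length and by mapped fragments, so levels can be compared between genes.

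The content of the table went against the labels. All 10 rows were described as Mus musculus genes, and none of their 12 transcript accessions or 10 gene identifiers was in the RefSeq table of the cattle assembly. Of 18 skeletal muscle markers 6 stayed below 1 FPKM in all 10 libraries, and the markers summed to 18.2 to 35.6 FPKM across MSTN+/- libraries and to 40.2, 20.5 and 21.0 FPKM in W1, W2 and W3. Of the 7 muscle markers tested 3 were higher and 1 was lower across MSTN+/- libraries, beside 31.8% and 12.8% of all genes tested. The myosin heavy chain gene Myh2 was at 5.73 to 15.29 FPKM against 0.14 FPKM or less (log2 difference 3.52, limma adjusted p = 4.418e-06). Des, for desmin, was at 2.69 FPKM or less against 11.97, 4.95 and 3.04 FPKM. The part of these markers in the results was not tested. All 12 pluripotency markers reached 1 FPKM, with a sum of 1263 to 2099 FPKM across MSTN+/- libraries and of 32.2, 2843 and 3270 FPKM in W1, W2 and W3. All 12 fibroblast markers did too, with a sum of 3126 to 6307 FPKM against 6719, 440.6 and 302.2 FPKM. W1 therefore stood apart from W2 and W3 in the sums of the pluripotency and fibroblast lists, and the differences of the 10 genes are given with and without it. Mstn was listed at 0 in 7 of 10 libraries and at no more than 0.18 FPKM in the other 3, so it cannot check the labels. Group names below are the labels, and no difference is attributed to MSTN or to cattle muscle.

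Fatty acids are oxidised only after they are joined to coenzyme A, a step done by acyl-CoA synthetases such as ACSL1 and ACSBG1. Long-chain acyl groups then pass the mitochondrial membranes as carnitine esters, made by CPT1 on the outer side and turned back into acyl-CoA by CPT2 inside. Acyl-CoA dehydrogenases for very long, long and medium chains, encoded by Acadvl, Acadl and Acadm, take the first step of each round of beta-oxidation, and the trifunctional protein, of which Hadha encodes the alpha subunit, takes later steps for long chains. CPT1 has a liver form (Cpt1a), a muscle and heart form (Cpt1b) and a brain form (Cpt1c). In adult skeletal muscle, CPT1B is the main form and fatty acid oxidation is a chief source of energy at rest.

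Most of the 10 genes were more abundant in the libraries labelled MSTN+/-. Acsbg1, Cpt1a, Cpt1c, Cpt2, Acadl, Acadvl and Hadha were higher, Acsl1 was lower, and Cpt1b and Acadm did not pass the threshold (limma, adjusted p under 0.05 over 14047 genes tested). Acsbg1 and Cpt1b reached 1 FPKM in MSTN+/- libraries only, so that they entered the test through that group, and of the other 8 genes 6 were higher and 1 lower. The 7 higher genes compare with 31.8% of all genes tested that were called higher, and the 1 lower gene with 12.8% called lower. The median difference of the 10 genes was 1.10 on the log2(FPKM + 1) scale, and that of all genes tested was 0.17. For the same 7 genes, the lowest MSTN+/- value exceeded the highest wild-type value, which held for 25.2% of genes tested, and no member lay wholly below, which held for 6.86%. The summed level of the 10 genes was 326.5 to 376.6 FPKM across MSTN+/- libraries and 167.8, 183.5 and 166.8 FPKM in W1, W2 and W3. In bulk RNA, fewer cells of a type and less RNA per cell cannot be told apart, and the part of the fibroblast and pluripotency markers in these differences was not tested.

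**Figure D1:**
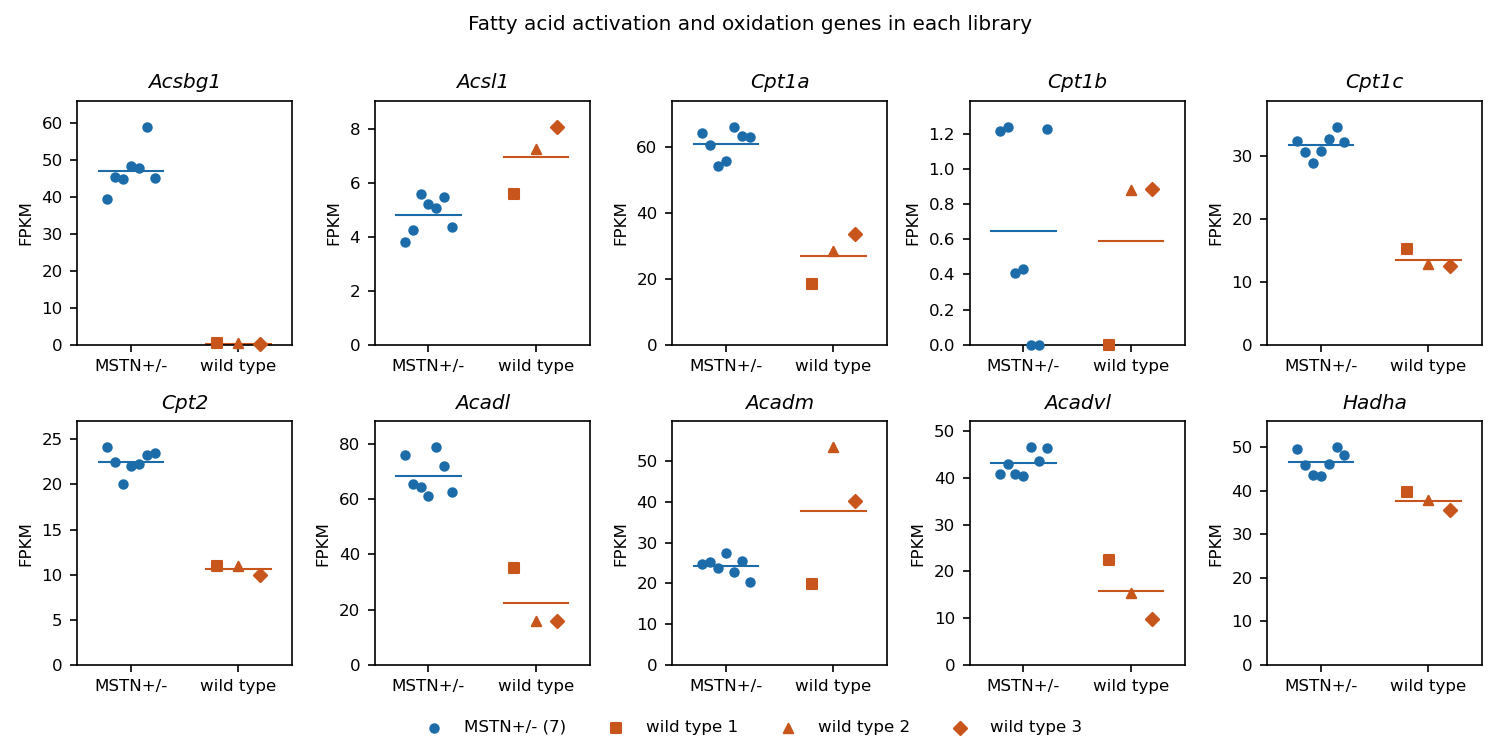
FPKM (vertical axes, linear from 0, with a scale of its own for each gene) of the 10 genes in the 7 MSTN+/- libraries (circles) and W1 (square), W2 (triangle) and W3 (diamond), with lines at group means. Acsbg1 stands at 39.4 FPKM or more in every MSTN+/- library and below 1 FPKM in every wild-type library, while Acadm is highest in W2 and W3.

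The 2 synthetase genes went opposite ways. Acsbg1 (gene 94180), a member of the bubblegum family best known from brain, adrenal gland and testis, had a lowest, median and highest level of 39.4, 45.4 and 58.9 FPKM across MSTN+/- libraries. In W1, W2 and W3 it was at 0.36, 0.47 and 0.07 FPKM. The 2 groups were far apart, and no wild-type library approached the MSTN+/- range. Group means were 47.2 ± 5.94 FPKM (SD, n = 7) and 0.300 ± 0.207 FPKM (SD, n = 3), 157 times higher, and the log2 difference was 5.22 ± 0.14 (SE, limma adjusted p = 7.949e-09). The difference was about as large without W1, at 5.25, and against it alone, at 5.14.

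Acsl1 (gene 14081), a long-chain synthetase prominent in fat, liver and heart, went the other way and at low levels. It was at 3.80, 5.07 and 5.60 FPKM (lowest, median, highest) in the MSTN+/- libraries. In W1, W2 and W3 it was at 5.58, 7.25 and 8.08 FPKM. W1 lay just inside the top of the MSTN+/- range, and W2 and W3 lay above it. Means were 4.83 ± 0.691 FPKM (SD, n = 7) and 6.97 ± 1.27 FPKM (SD, n = 3), a log2 difference of -0.45 ± 0.14 (SE, limma adjusted p = 0.0294). The call was lost against W1 alone (log2 difference -0.18, limma adjusted p = 0.445), without W2 or W3 (0.0995 and 0.132), without MSTN+/- replicate 2 or 7 (0.0556 and 0.0510), with library weights (0.0560) and with no low-value filter (0.0506). Over all alternatives its limma adjusted p ran from 0.00118 to 0.445.

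Within a library, Acsbg1 made up 88.9% to 91.5% of the summed FPKM of the 2 genes in the MSTN+/- libraries. In W1, W2 and W3 its share was 6.1%, 6.1% and 0.9%, so that Acsl1 was the more abundant there. The mean share was higher by 86.4 percentage points, and in 7 of 7 MSTN+/- libraries it exceeded every wild-type share (exact two-sided permutation test, p = 0.00833, the smallest that 120 splits allow; adjusted over 3 shares, p = 0.0125). Without W1 the difference was 87.2 percentage points. With Acsbg1 below 1 FPKM in every wild-type library, the share restates its difference in level and is no separate support. The summed level of both genes was 43.2 to 64.4 FPKM against 5.9, 7.7 and 8.2 FPKM. Neuronal and glial markers, given here because Acsbg1 is known from brain, summed to 39.4 to 74.0 FPKM across MSTN+/- libraries and to 41.0, 49.5 and 31.2 FPKM in W1, W2 and W3. Of these 8 markers 7 reached 1 FPKM in some library. In the MSTN+/- libraries 3 of 6 tested were higher, beside 31.8% of all genes tested. Among them was Mbp, a myelin protein gene, at 13.1 to 18.9 FPKM against 1.70 to 1.95 FPKM. The neuronal nuclear marker Rbfox3 stayed at 0.56 FPKM or below, and none of the 8 was listed at 0 throughout.

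**Figure D2:**
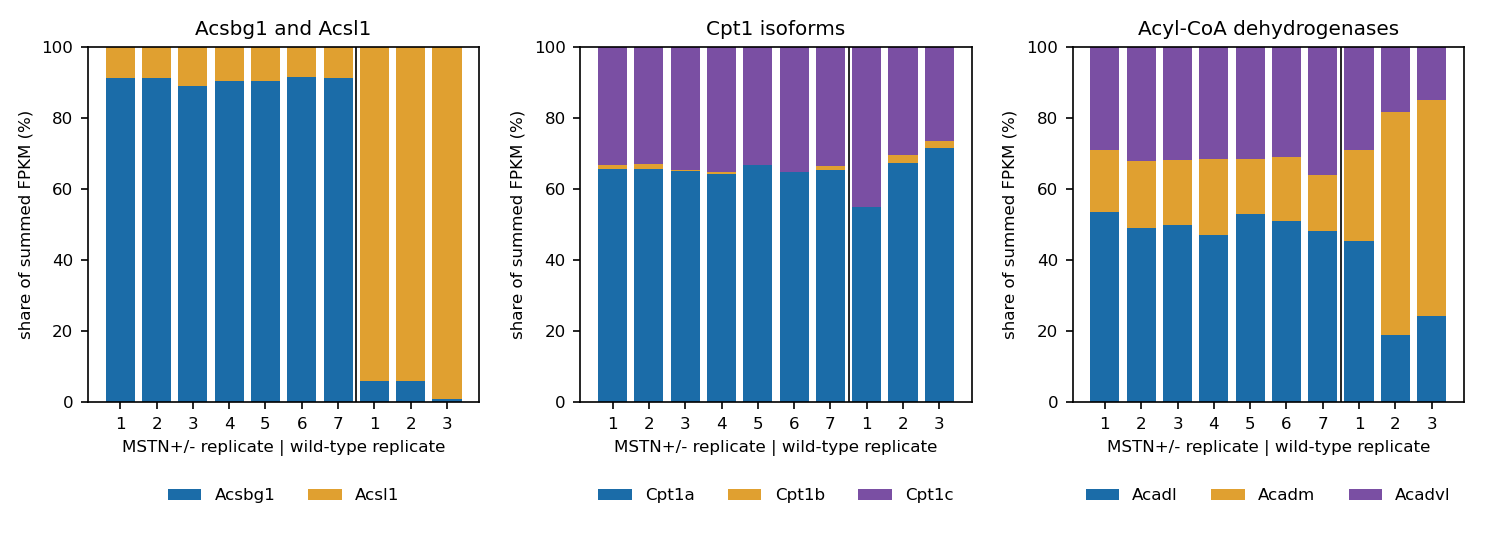
Share of summed FPKM (vertical axes, %) taken by each gene within 3 families, for MSTN+/- replicates 1 to 7 (left of the line) and W1 to W3 (right). Acsbg1 fills 88.9% or more of its bar in each MSTN+/- library and 6.1% or less in each wild-type library, and Acadm takes 62.9% and 60.8% in W2 and W3.

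Of the carnitine shuttle genes, Cpt1a, Cpt1c and Cpt2 were higher and Cpt1b did not pass. Cpt1a (gene 12894), the liver form of the gatekeeping transferase, was at 54.3, 63.0 and 66.1 FPKM (lowest, median, highest) in the MSTN+/- libraries. In W1, W2 and W3 it was at 18.5, 28.4 and 33.7 FPKM. The groups did not overlap, and W1 was the lowest library. Means were 61.1 ± 4.47 FPKM (SD, n = 7) and 26.9 ± 7.73 FPKM (SD, n = 3), a log2 difference of 1.19 ± 0.16 (SE, limma adjusted p = 2.649e-04). It was 0.96 without W1 and 1.67 against it alone.

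Cpt1c (gene 78070), the brain form, which sits in the endoplasmic reticulum and has little transferase activity, was at 28.9, 32.2 and 34.6 FPKM across MSTN+/- libraries. It was at 15.2, 12.8 and 12.4 FPKM in W1, W2 and W3. Every MSTN+/- value lay above every wild-type value, and the wild-type libraries were close together. The log2 difference was 1.18 ± 0.10 (SE, limma adjusted p = 1.026e-05). Means were 31.7 ± 1.85 FPKM (SD, n = 7) and 13.5 ± 1.49 FPKM (SD, n = 3). The log2 difference was 1.26 without W1 and 1.01 against it alone.

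Cpt1b (gene 12895), the muscle form, was at 1.24 FPKM or less throughout. It was listed at 1.22, 1.24, 0.41, 0.43, 0, 0 and 1.23 FPKM in MSTN+/- replicates 1 to 7 and at 0, 0.88 and 0.89 FPKM in W1 to W3. In the MSTN+/- libraries the values other than 0 were 1.0 to 1.05 or 2.98 to 3.02 times the lowest of them, and in W2 and W3 they were 2.15 and 2.17 times it. A listed 0 need not mean absence, since 142 genes were listed at 0 in at least 1 MSTN+/- library and at 5 FPKM or more in another. The log2 difference of 0.03, with a 95% interval of -0.73 to 0.79, did not pass (limma adjusted p = 0.948), and its sign turned without W1 (-0.27).

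Cpt2 (gene 12896), the inner enzyme of the shuttle, was at 20.01, 22.5 and 24.1 FPKM across MSTN+/- libraries and at 11.0, 11.0 and 9.92 FPKM in W1, W2 and W3. The groups were well separated, and the wild-type libraries lay close together. Means were 22.5 ± 1.33 FPKM (SD, n = 7) and 10.6 ± 0.606 FPKM (SD, n = 3). The log2 difference was 1.02 ± 0.09 (SE, limma adjusted p = 1.782e-05), 1.04 without W1 and 0.97 against it alone.

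The share of Cpt1a among the CPT1 forms did not pass its test. Summed FPKM of the 3 forms was 83.5 to 98.8 in the MSTN+/- libraries and 33.7, 42.1 and 47.0 in W1, W2 and W3. Cpt1a made up 64.2% to 66.9% of the sum in the MSTN+/- libraries and 54.9%, 67.4% and 71.7% in the wild-type libraries, with Cpt1c taking nearly all the rest. The mean share of Cpt1a was 65.4% ± 0.87 (SD, n = 7) against 64.7% ± 8.73 (SD, n = 3), a difference of 0.7 percentage points (exact two-sided permutation test, p = 0.775, adjusted p = 0.775). The wild-type libraries lay on either side of the MSTN+/- range. Without W1 the difference turned to -4.2 percentage points (exact permutation test, p = 0.0278, the smallest that 36 splits allow, adjusted p = 0.0278).

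Of the acyl-CoA dehydrogenases, the genes for long and very long chains were higher and the one for medium chains did not pass. Acadl (gene 11363), the long-chain enzyme, was at 60.9, 65.3 and 78.6 FPKM (lowest, median, highest) in the MSTN+/- libraries. It was at 35.1, 16.03 and 16.03 FPKM in W1, W2 and W3. No values overlapped, and W1 lay between the other wild-type libraries and the MSTN+/- range. Means were 68.4 ± 6.98 FPKM (SD, n = 7) and 22.4 ± 11.0 FPKM (SD, n = 3), a log2 difference of 1.66 ± 0.22 (SE, limma adjusted p = 2.367e-04). It was 2.02 without W1 and 0.94 against it alone, past the threshold in both.

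Acadvl (gene 11370), the enzyme for very long chains, was at 40.5, 43.1 and 46.6 FPKM across MSTN+/- libraries and at 22.4, 15.5 and 9.88 FPKM in W1, W2 and W3. Means were 43.1 ± 2.57 FPKM (SD, n = 7) and 15.9 ± 6.28 FPKM (SD, n = 3). The log2 difference was 1.45 ± 0.19 (SE, limma adjusted p = 2.312e-04), 1.72 without W1 and 0.91 against it alone. In both long-chain genes the MSTN+/- libraries were thus higher than each wild-type library, by less against W1.

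Acadm (gene 11364), the medium-chain enzyme, split the wild-type libraries. It was at 20.4, 24.7 and 27.6 FPKM across MSTN+/- libraries and at 19.9, 53.4 and 40.3 FPKM in W1, W2 and W3. W1 lay just below the MSTN+/- range, and W2 and W3 lay well above it. Means were 24.3 ± 2.28 FPKM (SD, n = 7) and 37.8 ± 16.9 FPKM (SD, n = 3), and the log2 difference of -0.51, with a 95% interval of -1.05 to 0.02, did not pass (limma adjusted p = 0.103). It was -0.91 without W1 (limma adjusted p = 8.850e-05) and 0.27 against that library alone (0.147), so its direction rested on which wild-type libraries were used. It also passed as lower after median-of-ratios scaling (-0.72, limma adjusted p = 0.0179), after quantile normalization (-0.54, 0.0474) and with library weights (-0.68, 0.00332).

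As a share of the 3 dehydrogenases, Acadl took 47.2% to 53.6% in the MSTN+/- libraries and 45.3%, 18.9% and 24.2% in W1, W2 and W3. The mean share was 50.3% ± 2.42 (SD, n = 7) against 29.5% ± 13.98 (SD, n = 3), higher by 20.8 percentage points and in 7 of 7 MSTN+/- libraries (exact two-sided permutation test, p = 0.00833, adjusted p = 0.0125). This p is the smallest that 120 splits allow. W1 lay just below the MSTN+/- range, so most of the difference came from W2 and W3. Without W1 the difference was 28.7 percentage points. Acadm took 15.4% to 21.4% in the MSTN+/- libraries and 25.7%, 62.9% and 60.8% in the wild-type libraries. Acadvl took 28.9% to 35.9% against 29.0%, 18.2% and 14.9%. The most abundant dehydrogenase transcript was thus Acadl in all MSTN+/- libraries and in W1, and Acadm in W2 and W3. The summed fibroblast markers followed this split, at 3126 to 6307 FPKM across MSTN+/- libraries and 6719 FPKM in W1, against 440.6 and 302.2 FPKM in W2 and W3. Col1a1, Col1a2 and Col3a1 led this sum, and not every marker followed it. Dcn was at 168.6 to 323.7 FPKM against 24.3, 33.0 and 8.27 FPKM in W1, W2 and W3, and Lum at 45.2 to 99.9 FPKM against 28.8, 11.7 and 4.66 FPKM. In the rest of the list W1 lay within or above the MSTN+/- range. Pluripotency markers set W1 apart as well. In 9 of the 12 every MSTN+/- value lay below W2 and W3, and in all 12 every MSTN+/- value lay above W1. Nanog, for example, was at 5.95 to 55.04 FPKM across MSTN+/- libraries and at 0.91, 233.8 and 176.9 FPKM in W1, W2 and W3. Pou5f1, Klf4 and Sox2 made up most of the MSTN+/- sum, and the other 9 summed to 28.4 to 451.1 FPKM there and to 1.4, 2177 and 2378 FPKM in W1, W2 and W3. The part of either marker list in the level of Acadm was not tested.

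Hadha (gene 97212), the alpha subunit of the trifunctional protein, moved least among the genes called. It was at 43.3, 46.2 and 49.9 FPKM across MSTN+/- libraries and at 39.8, 37.9 and 35.6 FPKM in W1, W2 and W3. The groups did not overlap but lay close together. Means were 46.7 ± 2.71 FPKM (SD, n = 7) and 37.7 ± 2.11 FPKM (SD, n = 3), a log2 difference of 0.30 ± 0.09 (SE, limma adjusted p = 0.0193). Relative to the median of all genes the difference was 0.13, and after median-of-ratios scaling it was 0.09 and did not pass (limma adjusted p = 0.506). The call was also lost after TPM rescaling (0.0672), without W2 or W3 (0.0553 and 0.0799) and against W1 alone (0.114). Over all alternatives its limma adjusted p ran from 0.00282 to 0.506.

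Hadhb, which encodes the beta subunit of the same complex and was singled out after its values were seen, was at 28.6 to 33.6 FPKM across MSTN+/- libraries and at 29.3 to 30.2 FPKM in W1, W2 and W3. Its log2 difference was 0.04 with a 95% interval of -0.15 to 0.22 (limma adjusted p = 0.744). The ratio of Hadha to Hadhb was 1.37 to 1.69 in the MSTN+/- libraries and 1.36, 1.27 and 1.18 in W1, W2 and W3.

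**Figure D3:**
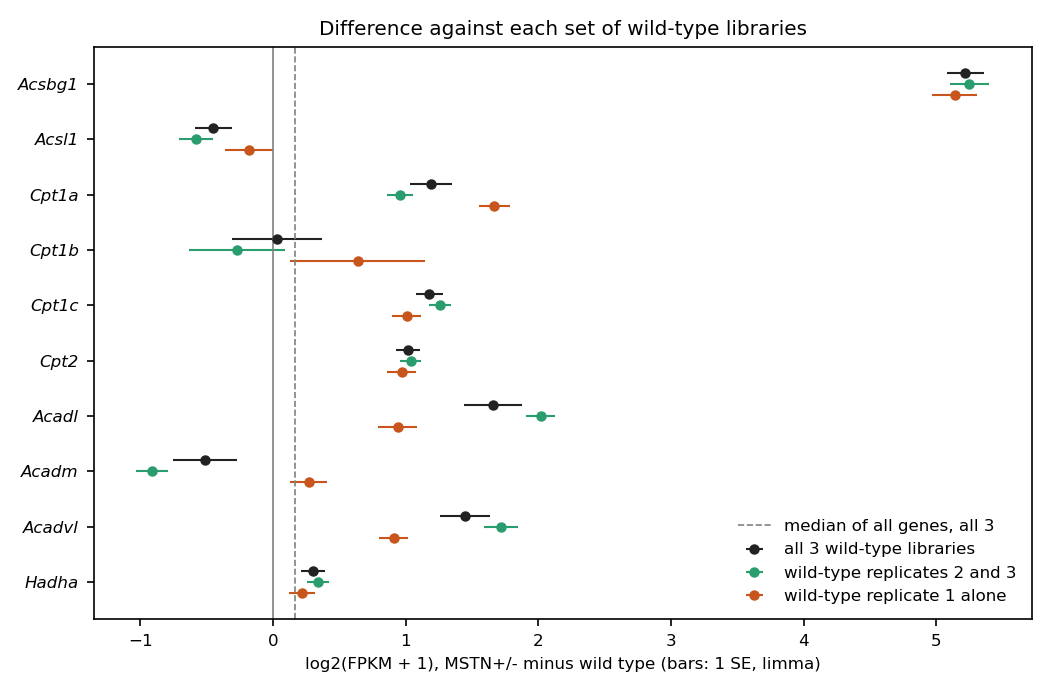
Difference in log2(FPKM + 1), MSTN+/- minus wild type (horizontal axis, bars 1 SE, limma), of each gene against all 3 wild-type libraries (black), W2 and W3 (green) and W1 alone (orange); the dashed line is the median of all genes, 0.17. Acsbg1, Cpt1c and Cpt2 differ little between the fits, and Acadm turns from -0.91 to 0.27.

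The order of levels was read within each library. In the MSTN+/- libraries Acadl and Cpt1a were the 2 most abundant members, with ranges that overlapped, and the range of Cpt1a also touched that of Acsbg1. Acsbg1, Hadha and Acadvl followed with overlapping ranges, then Cpt1c, clear of them, then Acadm and Cpt2, which overlapped, then Acsl1 and last Cpt1b. In W1 the leading genes were Hadha, Acadl and Acadvl, and in W2 and W3 they were Acadm, Hadha and Cpt1a. Acsbg1 was last or next to last in all 3 wild-type libraries.

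Among the 7 MSTN+/- libraries the members varied little. The coefficient of variation was 5.81% for Hadha, 5.82% for Cpt1c, 5.90% for Cpt2, 5.97% for Acadvl, 7.31% for Cpt1a and 9.37% for Acadm. It was 10.2% for Acadl, 12.6% for Acsbg1 and 14.3% for Acsl1, while Cpt1b, near the lowest values listed, had 88.3%.

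The wider pathway was read from 60 other genes of fatty acid uptake, activation, transport, oxidation, control and release. This list was also chosen with earlier results of these data known. All 60 had a row and 52 were tested, of which 29 were higher, 3 lower and 20 did not pass, or 55.8% higher and 5.8% lower beside 31.8% and 12.8% of all genes. Their median log2 difference was 0.64, beside 0.17 for all genes tested. The 8 genes too low to test included Ppara, the fatty acid-sensing nuclear receptor, at 0.15 FPKM or below, and its coactivator gene Ppargc1a, at 0.68 FPKM or below. Of the 52, 25 had every MSTN+/- value above the highest wild-type value and 3 had every one below the lowest, beside 25.2% and 6.86% of all genes tested. Cd36 and Ppargc1b reached 1 FPKM in one group only, the one where each was high, and of the other 50 genes 28 were higher and 2 lower. Of the 20 that did not pass, 7 were called lower and 1 higher without W1. In that fit 31.9% of all genes tested were called lower and 42.2% higher. Among these 20, Acads, Hadh and Acacb were lower without W1 but had positive log2 differences, of 0.62, 0.87 and 1.03, against W1 alone.

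In uptake and activation 5 of 8 genes tested were higher and 1 lower (62.5% and 12.5%, beside 31.8% and 12.8% of all genes). Slc27a3, an acyl-CoA synthetase of the fatty acid transport protein family, had 36.5 ± 7.39 FPKM (SD, n = 7) against 9.01 ± 2.26 FPKM (SD, n = 3), a log2 difference of 1.90 (limma adjusted p = 4.271e-05). Cd36, a fatty acid uptake receptor, had 2.37 ± 0.709 FPKM against 0.183 ± 0.101 FPKM, and Acsl5, another long-chain synthetase, had 28.7 ± 3.17 FPKM against 13.2 ± 6.40 FPKM, with log2 differences of 1.49 and 1.15. Acsl3, a synthetase tied to lipid droplets, was the lower one, at 8.39 ± 0.847 FPKM against 16.6 ± 2.22 FPKM, a log2 difference of -0.90 (limma adjusted p = 2.269e-04). The calls of Acsl3 and Acsl5 were kept under every scaling and left-out library, with Acsl5 at 0.47 against W1 alone (limma adjusted p = 0.0397). The other 2 higher genes, named because the count is small, were Acsl4 and the transport protein gene Slc27a4, at 0.75 and 0.64, and neither passed against W1 alone (0.25 and 0.01, limma adjusted p of 0.170 and 0.958). Slc27a4 also did not pass after median-of-ratios scaling (0.141) or without W2 or W3 (0.0929 and 0.144).

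In carnitine transport 3 of 4 genes were higher (75.0%, beside 31.8% of all genes). Crot, the peroxisomal octanoyltransferase, had 17.9 ± 1.47 FPKM (SD, n = 7) against 9.44 ± 2.37 FPKM (SD, n = 3), and Slc22a5, the carnitine importer, had 4.83 ± 0.894 FPKM against 2.40 ± 0.526 FPKM, a call lost after quantile normalization (limma adjusted p = 0.103). Crat, the carnitine acetyltransferase, had 11.8 ± 0.873 FPKM against 6.07 ± 3.95 FPKM, but its log2 difference of 1.0 was 0.66 without W3 (limma adjusted p = 0.0487) and 0.15 against W1 alone (0.358). The fourth, the carnitine-acylcarnitine carrier gene Slc25a20, was at 40.3 to 49.3 FPKM against 14.5, 58.7 and 25.1 FPKM and did not pass (0.65, limma adjusted p = 0.117). It was 0.20 without W1 (0.462), and passed as higher against W1 alone (1.55, limma adjusted p = 2.889e-05) and with library weights (0.74, 0.00766).

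Of 6 other acyl-CoA dehydrogenase genes, 2 were higher, 4 did not pass and none was lower. At 33.3%, the higher genes were near the 31.8% of all genes tested, and 12.8% of all genes were lower. That none was lower rested on W1. Without W1, Acads was lower (log2 difference -0.26, limma adjusted p = 0.0213), and against W1 alone it was at 0.62. Acad10, Acad11 and Acad12 were at -0.21, 0.04 and 0.12 without W1 and at 0.56, 1.27 and 0.55 against it alone. Acadsb, for short branched chains, had a log2 difference of 0.66 and Acad9, also an assembly factor of respiratory complex I, one of 0.37 (limma adjusted p of 0.0181 and 0.0348). The call of Acadsb was lost without W2 or W3 (0.0576 and 0.0867) and against W1 alone (0.456), and that of Acad9 without W1 or W3 (0.0596 and 0.101) and without any 1 of MSTN+/- replicates 1 to 6 (0.0524 to 0.0645). Against W1 alone the log2 difference of Acad9 was 0.61, and without W1 it was 0.24. Both were lost under median-of-ratios scaling (0.103 and 0.248).

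Later and auxiliary steps of mitochondrial oxidation had 3 of 7 genes higher (42.9%, beside 31.8% of all genes) and none lower (beside 12.8%). These were Eci2, an enoyl-CoA isomerase, at 57.9 ± 3.62 FPKM (SD, n = 7) against 20.7 ± 3.04 FPKM (SD, n = 3), Acaa2, a thiolase, at 46.8 ± 4.27 FPKM against 20.1 ± 6.86 FPKM, and Decr1, a reductase for unsaturated chains, at 16.7 ± 1.26 FPKM against 8.12 ± 1.79 FPKM. Their log2 differences were 1.45, 1.23 and 0.97. That none was lower rested on W1. Without W1, Hadh and Echs1 were lower, at -0.51 and -0.41 (limma adjusted p of 0.00410 and 0.00256), and Hadhb and Eci1 were at 0.02 and 0.10. Against W1 alone Hadh and Echs1 were at 0.87 and 0.14. Electron transfer from the dehydrogenases had 3 of 3 genes higher, beside 31.8% of all genes. Etfa, Etfb and Etfdh, the electron transfer flavoprotein subunits and their oxidoreductase, had log2 differences of 0.70, 0.66 and 0.85. That of Etfb was 0.43 without W1 and 1.11 against it alone.

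Peroxisomal oxidation had 5 of 10 genes tested higher and none lower, beside 31.8% and 12.8% of all genes. Having none lower rested on W1 and on scaling. Ehhadh was at 0.77 to 1.97 FPKM against 0.55, 3.91 and 2.11 FPKM in W1, W2 and W3. Without W1 it was lower (log2 difference -0.65, limma adjusted p = 0.0220), and against W1 alone it was at 0.68. Abcd3 was higher without W1 (0.32, 0.0058), and Hsd17b4, Abcd2 and Decr2 did not pass. After quantile normalization Ehhadh and Abcd2 were lower (limma adjusted p of 0.0185 and 0.0177). Acaa1a, a peroxisomal thiolase with a close paralog in Acaa1b, which leaves the split of its reads uncertain, had 36.3 ± 2.06 FPKM (SD, n = 7) against 21.6 ± 2.81 FPKM (SD, n = 3). Acox3, an acyl-CoA oxidase gene, had a log2 difference of 0.57, a call lost after quantile normalization (limma adjusted p = 0.138). The lipid carrier gene Scp2 was at 0.50 and did not pass after median-of-ratios scaling (limma adjusted p = 0.128), with library weights (0.20, 0.223) or without W2 (0.32, 0.0852).

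Regulators had 3 of 9 genes higher and 2 lower (33.3% and 22.2%, beside 31.8% and 12.8% of all genes). Of the enzymes that set malonyl-CoA, the inhibitor of CPT1, Acaca, which makes it, had 13.2 ± 1.52 FPKM (SD, n = 7) against 23.1 ± 1.79 FPKM (SD, n = 3), a log2 difference of -0.77 (limma adjusted p = 5.713e-04). Mlycd, which breaks it down, had 9.15 ± 1.18 FPKM against 2.57 ± 1.13 FPKM, a log2 difference of 1.54 (limma adjusted p = 1.169e-04). Acacb, the mitochondrial carboxylase, was at 1.35 to 2.40 FPKM against 0.36, 3.65 and 3.97 FPKM and did not pass (-0.18, limma adjusted p = 0.684). It was lower without W1 (-0.79, limma adjusted p = 6.646e-04) and higher against W1 alone (1.03, 0.00500), so its direction rested on that library. Esrra, a nuclear receptor of mitochondrial genes, had a log2 difference of 0.78, and Ppargc1b, its coactivator, one of -0.90 at levels of 0.35 to 0.94 FPKM against 1.0, 2.89 and 3.0 FPKM. The latter entered the test through its wild-type values alone, and without it 1 regulator was lower. The third higher regulator, the pyruvate dehydrogenase kinase gene Pdk4, was at 0.78 and did not pass without W1 or W3 (limma adjusted p of 0.0658 and 0.0624) or after median-of-ratios scaling (0.0515). It was 1.19 against W1 alone. Ppargc1b could not be tested without any 1 wild-type library, where too few values reached 1 FPKM.

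All 5 genes of fatty acid release were higher, beside 31.8% of all genes. The monoglyceride lipase gene Mgll had 6.27 ± 1.05 FPKM (SD, n = 7), and 2.56, 0.24 and 0.30 FPKM in W1, W2 and W3, a log2 difference of 2.01 that was 1.02 against W1 alone. Pnpla2 and Lipe, the triglyceride and hormone-sensitive lipases, had 23.0 ± 2.22 and 6.29 ± 0.558 FPKM against 12.5 ± 1.45 and 2.67 ± 1.11 FPKM (SD, n = 3). Lpl, the secreted lipoprotein lipase, had 10.8 ± 2.14 FPKM against 5.38 ± 1.14 FPKM, and its call was lost against W1 alone (0.62, limma adjusted p = 0.0852). Abhd5, the activator of the triglyceride lipase, was at 13.4 to 18.6 FPKM against 17.3, 5.19 and 2.52 FPKM, and its log2 difference of 1.19 turned to -0.12 against W1 alone (limma adjusted p = 0.541). It was 1.85 without W1, and did not pass without W2 or W3 (0.110 and 0.145) or after median-of-ratios scaling (0.0718). Of 7 adipocyte markers with a row 6 stayed below 1 FPKM in every library, among them Adipoq, Plin1 and Lep. The summed adipocyte markers were at 3.8 to 45.7 FPKM across MSTN+/- libraries and at 7.1, 3.0 and 3.3 FPKM in W1, W2 and W3, and nearly all of this was Fabp4.

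**Figure D4:**
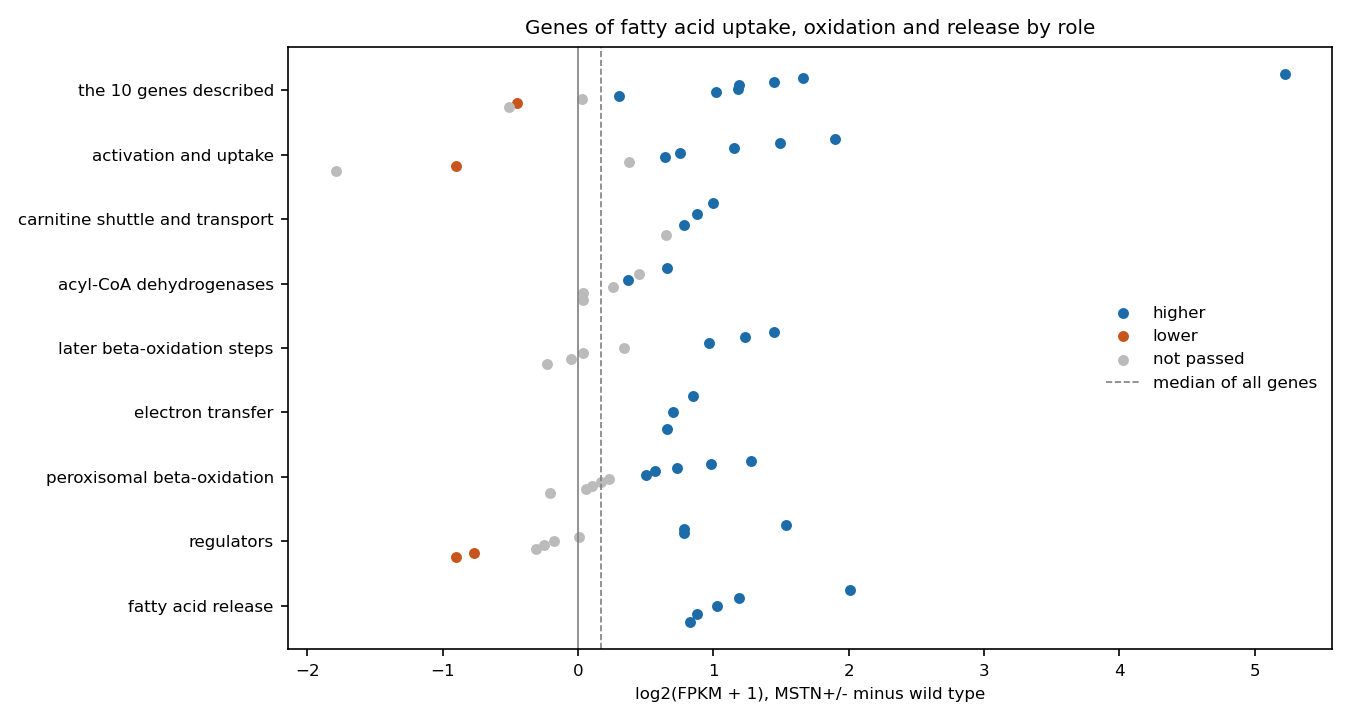
Difference in log2(FPKM + 1), MSTN+/- minus wild type (horizontal axis), of the 10 genes described and of 52 other pathway genes tested, in rows by role; blue points were called higher, orange lower and grey did not pass, and the dashed line is the median of all genes, 0.17. Electron transfer and fatty acid release have 3 of 3 and 5 of 5 points called higher, beside 31.8% of all genes. The regulators lie on both sides of 0.

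The direction counts depended on scaling and on the wild-type libraries. After median-of-ratios scaling, which moved the median of all genes from 0.17 to -0.01, 6 of the 10 genes were higher and 2 lower, and after quantile normalization (median -0.10) 7 were higher and 2 lower. In the wider pathway those scalings gave 23 higher and 5 lower, and 22 higher and 11 lower. Median log2 differences were then 0.90 and 0.96 for the 10 genes and 0.44 and 0.34 for the wider pathway, beside -0.01 and -0.10 for all genes. The shares of all genes tested that were called higher or lower are not given for those scalings. The share of higher genes among all calls was 71.3% as deposited and 50.1% and 42.7% under them. Against W1 alone 6 of the 10 genes were higher and none lower, where 33.7% and 10.8% of all genes were called, and without it 7 were higher and 2 lower, where 42.2% and 31.9% were. Acsbg1, Cpt1a, Cpt1c, Cpt2, Acadl and Acadvl were higher in each of these fits. In the wider pathway 31 genes were higher and 4 lower against W1 alone, and 28 and 9 without it.

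Genes whose log2(FPKM + 1) followed each member most closely over the 10 libraries were found by Pearson's r, as a description: the libraries fall into sets that stand apart, so r mainly reflects those sets. For Acsbg1 they were Ano1, Zbtb7c and Afap1l2, with r of 0.998, 0.998 and 0.997. Ano1, a chloride channel gene, was at 49.1 to 72.1 FPKM across MSTN+/- libraries and at 0.91, 0.41 and 0.43 FPKM in W1, W2 and W3. For Cpt1a they were Cited1, Smarcd2 and Slc43a2 (0.996, 0.992 and 0.990), for Cpt1c Msln, Abca1 and Mill2 (0.998, 0.996 and 0.995), and for Cpt2 1700020L24Rik, Abca1 and Pdk2 (0.995, 0.994 and 0.993). For Acadl they were Mras, Il1rn and Rab11fip2 (0.997, 0.997 and 0.996), and for Acadvl Osbpl9, Clec2d and Sppl2a (0.997, 0.997 and 0.996). Acadm was followed by Eif2d, Ccdc14 and Mief1 (0.993, 0.989 and 0.988), and Hadha by Gm21188, Mospd3 and Ndufa2 (0.979, 0.976 and 0.973). Acsl1 had Ppargc1b, Dnaja2 and Tfpt (0.945, 0.941 and 0.935), and Cpt1b, at its low level, Tpst1, Mir6991 and Tmem258 (0.798, 0.791 and 0.784). Abca1, a cholesterol exporter gene, thus appeared for both Cpt1c and Cpt2, and no member was among the 3 closest genes of another.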

How the data were processed

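FPKM values, rounded to 2 decimals, were computed by the authors and deposited as 1 table, per the file headers. How reads were aligned and counted, and against which genome build, is not given in the sources used here. Columns were tied to libraries by title and groups were taken from the genotype label; replicate numbers only follow record order, and 0 columns were left unused. Absolute depth is unknown. Steps in low single-transcript genes put relative depth at 1 to 1.20 times that of MSTN+/- replicate 1, from a search near equal depth. FPKM sums ran from 402716 to 464418.

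The groups were compared by limma 3.58.1 in R 4.3.3, with an intensity trend, on log2(FPKM + 1). The 14047 genes that reached 1 FPKM in 3 or more libraries were tested, with 8 residual degrees of freedom and Benjamini-Hochberg adjustment over all of them. Such differences understate the change of low genes. Shares were compared by exact permutation over libraries. Named genes were the 10 members, up to 4 called genes with the smallest p in each role class of the pathway list, the 3 closest genes per member by Pearson's r, Mstn, and markers with the highest mean. Other genes given with values were singled out after their values were seen. Members and lists were chosen with earlier results of these data known. Scalings, pseudocount, filters, robust fitting, library weights and left-out libraries were tried. The procedure was tested on simulated data that had, for each gene, independent noise of equal spread in all libraries. That setting holds no library that stands apart like W1, so it cannot tell how the test behaves with one. Some genes of the lists, counted in the totals, are not reported here by name. Figures used matplotlib 3.10.9.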

Additional observations from a re-analysis of the deposited data

Results flagged for a closer look

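Among the 40 sets of 7 MSTN+/- values checked for a library far from the others (the 10 members, the 27 named pathway genes and the 3 shares), 1 stood out. Acsl3 was at 10.19 FPKM in MSTN+/- replicate 4, and the other 6 libraries were at 7.57 to 8.53 FPKM. The gap made up 0.63 of the range, above the critical value of 0.568. Chance flags about 1 in 20 such sets. All 7 values lay below the lowest wild-type value, 14.05 FPKM.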

How the results depend on the processing

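Of 186 values of the 10 genes under the alternatives, 165 kept their direction and side of the threshold. The sign of Cpt1b, never past the threshold, turned with median-of-ratios scaling (-0.02), quantile normalization (-0.53) and library weights (-0.27), and ranged from -0.27 to 0.19 over left-out libraries; it could not be tested under the filter on a mean of 5 FPKM or without MSTN+/- replicate 1, 2 or 7. Acadm turned to 0.27 against W1 alone. The count of members called lower was 1, and 2 with median-of-ratios scaling or quantile normalization, 0 with no low-value filter (7 higher) or against W1 alone, and 0 to 2 over left-out libraries. Where it was 0, Acsl1 had just missed the threshold in the fit with no filter (limma adjusted p = 0.0506). Pathway genes called lower numbered 3, and 5 with median-of-ratios scaling, 11 with quantile normalization, 5 with library weights and 2 to 9 over left-out libraries. The Cpt1a share difference ranged from -4.2 to 4.2 percentage points over left-out libraries. Of the 27 pathway genes named by rule 17 were called in every alternative, and 7 lost the call in at least 1, among them Slc22a5 and Acox3 after quantile normalization (limma adjusted p of 0.103 and 0.138) and Crat, Acadsb, Acad9 and Lpl as given above. Of the 5 named because their count was small, each lost the call in at least 1: Slc27a4 also with TPM rescaling (0.0654), quantile normalization (0.135) and without MSTN+/- replicate 2, 3, 6 or 7 (0.0507 to 0.0548), Pdk4 also with quantile normalization (0.317) and library weights (0.177), and Abhd5 also with quantile normalization (0.0597) and without MSTN+/- replicate 1 (0.0516). The cause was not tested for any of these. No paired analysis was possible because the labels give no replicate numbers. The fit against W1 alone assumes that it varies like the 7 libraries.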

Other observations

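Among the liver markers with a row 4, the albumin gene Alb being one of them, stayed below 1 FPKM in all 10 libraries. Slc27a2, a synthetase for very long chains, was at 2.01 FPKM or below in the MSTN+/- libraries, listed at 0 in W1 and at 9.63 and 16.41 FPKM in W2 and W3, and did not pass with all libraries (log2 difference -1.79, limma adjusted p = 0.0790). It was -3.04 without W1 (limma adjusted p = 1.207e-04), 0.72 against W1 alone (0.360), -3.11 with library weights (0.00739) and -2.10 with quantile normalization (0.0276).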
